A study of Mus musculus with 18 samples.

Results

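Airway-like organoids from bronchioalveolar stem cells (BASCs) of the distal mouse lung were compared with organoids from the trachea. The members were chosen by their labels, 3 BASC cultures on one side and 4 tracheal cultures on the other, out of 18 sequenced cultures. The study asked which lung epithelial cells can give rise to tumors driven by mutant EGFR. Its mice carried a lox-stop-lox human EGFR transgene with the T790M and L858R changes, knocked in at Col1a1 behind a CAG promoter. Sorted cells of mice without tumors were infected with Ad-GFP, the control virus, or with Ad-Cre, whose recombinase takes out the stop cassette, and were grown in Matrigel on Transwell inserts together with lung mesenchymal endothelial support cells. The 4 tracheal cultures were NGFR-negative club cells with Ad-GFP and with Ad-Cre, and NGFR-positive basal cells with Ad-GFP and with Ad-Cre. The 3 airway-like BASC cultures came from Sca1-positive cells of the distal lung: the mixed culture with Ad-GFP, the mixed culture with Ad-Cre, and a bronchiolar culture with Ad-Cre that had been picked by organoid shape. The alveolar BASC culture, also picked by shape, was left out because in earlier results of these data it clustered with the alveolar type 2 (AT2) organoids, so that choice was made with results known.

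The conducting airway is lined by basal cells, which carry keratin 5 and p63 and act as stem cells in the trachea, by secretory club cells, and by multiciliated cells. Club cells of the bronchioles are known for Scgb1a1, the club cell secretory protein. BASCs sit where the bronchiole meets the alveoli, where they carry both Scgb1a1 and the surfactant gene Sftpc, and they can form bronchiolar and alveolar cells.

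Every culture gave 1 library and no condition was repeated, so different populations and viruses stand in for replicates, and each p measures the spread between these particular cultures. By the paper, the Ad-GFP and Ad-Cre cultures of a population began as aliquots of sorted cells, and BASC organoids were separated by hand at passage into alveolar, bronchiolar and mixed cultures. Cultures of the same population are therefore related, and the mixed Ad-Cre and bronchiolar cultures may come from the same infected cells. Total expected counts were 27772660, 34507648, 48522427 and 52148310 in the tracheal cultures (always given in the order club Ad-GFP, club Ad-Cre, basal Ad-GFP, basal Ad-Cre) and 58215741, 62248740 and 63217079 in the BASC cultures (mixed Ad-GFP, mixed Ad-Cre, bronchiolar Ad-Cre). All 4 tracheal libraries carry the tag of lane 6, both mixed BASC libraries that of lane 7 and the bronchiolar library that of lane 8. Lane, depth and origin therefore cannot be told apart, and no fit with lane as a term can be had. Levels are given as CPM, counts that edgeR scales to a common library size over the 10 organoid cultures, unless TPM, the length-scaled share of transcripts, is named. Values joined by "against" are those of the tracheal and then of the BASC cultures.

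The labels were checked against defining markers. Krt5, the basal keratin, stood at 2397, 2356, 2124 and 1853 CPM in the tracheal cultures and at 1654, 1003 and 501 in the BASC cultures. All 7 held abundant Krt5, with the bronchiolar culture lowest and no overlap between the sides. Trp63, which encodes p63, ranged from 166 to 186 in the trachea and from 130 to 152 in BASC cultures, and Ngfr, the sort marker of tracheal basal cells, from 88.7 to 99.2 in the trachea and from 38.2 to 77.3 in BASC cultures. Ngfr was thus as high in the NGFR-negative club cultures (98.1 and 99.2) as in the NGFR-positive basal ones (96.2 and 88.7). Ly6a, which encodes the Sca1 antigen used to sort BASCs, ranged from 1192 to 1475 in the trachea and from 891 to 1334 in BASC cultures, so at harvest it did not mark the BASC side. Sox2, a transcription factor of the conducting airway, was present in all 7 (154, 178, 212 and 193 in the trachea, 194, 152 and 121 in BASC cultures) and at 15.8, 1.49 and 3.92 in the alveolar BASC, AT2 Ad-GFP and AT2 Ad-Cre cultures. EdgeR called none of these 5 with all 7 cultures, while DESeq2 called Krt5 and Trp63 lower (adjusted p = 0.045 and 0.0078). Without the mixed Ad-GFP culture edgeR called both lower as well (adjusted p = 0.0066 and 0.0091).

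The mixed Ad-GFP library stands apart from the other 2 BASC libraries, so list counts and many genes are also given without it. Across 20104 genes, Pearson correlations of log2 CPM among the tracheal cultures ran from 0.987 to 0.992. The mixed BASC Ad-GFP culture correlated with the tracheal cultures at 0.981 to 0.984, and with the mixed Ad-Cre and bronchiolar BASC cultures at 0.973 and 0.954. It lay nearer to every tracheal culture than to either of its own group. Its Scgb1a1, Retnla and Isl1, given below, lay with the other BASC cultures. Those genes were chosen by the test that counted this culture as BASC, so they cannot tell where the library belongs. Whether the place of the mixed Ad-GFP library comes from the culture, the virus or an exchange of samples was not tested. The mixed Ad-Cre and bronchiolar cultures correlated with each other at 0.986, and with the tracheal cultures at 0.972 to 0.976 and 0.957 to 0.962. With the AT2 and alveolar BASC cultures, the mixed Ad-GFP culture correlated at 0.856 to 0.902, the mixed Ad-Cre culture at 0.898 to 0.933, the bronchiolar culture at 0.907 to 0.934 and the tracheal cultures at 0.851 to 0.901. These values describe pairs of libraries across genes, which are not replicates.

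**Figure D1:**
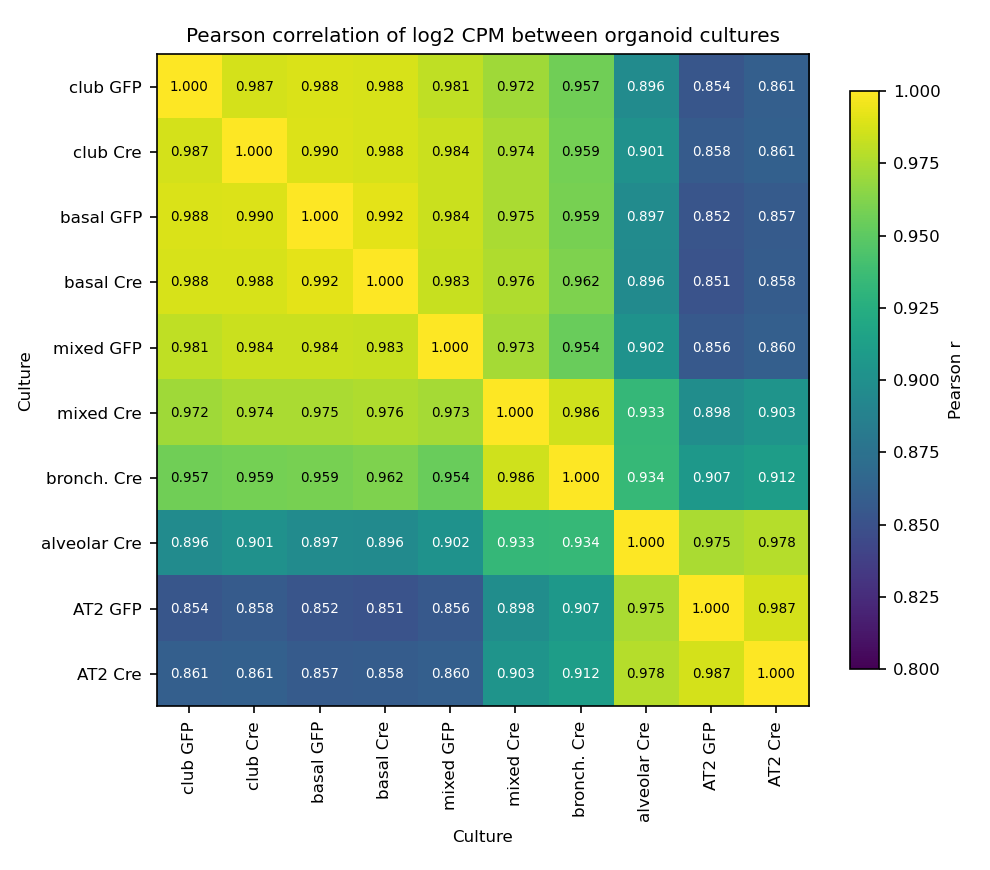
Pearson correlation of log2 CPM over 20104 genes between the 10 organoid cultures, 1 library each, with the value printed in each square. The mixed BASC Ad-GFP culture has its highest values (0.981 to 0.984) with the 4 tracheal cultures, while the mixed BASC Ad-Cre and bronchiolar cultures pair with each other at 0.986.

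In the test of 3 BASC against 4 tracheal cultures, the genes higher in the BASC cultures included Scgb1a1 and some further secretory and alveolar genes, and those lower included the transcription factors Isl1 and Osr2. Of 17908 genes tested, 61 passed an adjusted p of 0.05, 39 higher and 22 lower in BASC cultures, and 3142 had an unadjusted p below 0.05. The adjusted p of the 61 lay between 0.0138 and 0.0488, close to the threshold. Without any one of the tracheal cultures edgeR called 0 genes, with 2158 to 2443 genes at an unadjusted p below 0.05, while DESeq2 called 596 to 787 in the same cultures and 1181 in all 7. Without the mixed Ad-GFP culture the count was 4812 of 18195 genes, 2360 higher and 2452 lower, and all 61 were among them. Here and below, called means by edgeR unless DESeq2 is named. The 2 BASC cultures left then are the related ones that both carry Ad-Cre, and with Ad-Cre cultures only on both sides (2 against 2) 718 genes were called, 460 higher and 258 lower.

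Scgb1a1 (chromosome 19, 9083636 to 9087958 of GRCm38) stood at 2.56, 4.45, 2.52 and 1.63 CPM in the tracheal cultures and at 278, 554 and 1461 in the BASC cultures. Every BASC culture lay far above every tracheal one, the tracheal club cultures included, and the bronchiolar culture was highest (log2 fold change 8.11, SE 0.70, edgeR adjusted p = 0.036). In the alveolar BASC, AT2 Ad-GFP and AT2 Ad-Cre cultures, which the fit did not use, it stood at 207, 13.1 and 306. Retnla (chromosome 16, 48842551 to 48844461), a secreted resistin-like protein, had the smallest adjusted p of all genes: 0.405, 0.397, 0.12 and 0.0918 CPM in the trachea against 83.4, 34.8 and 51 in BASC cultures (log2 fold change 7.92, SE 0.54, edgeR adjusted p = 0.014). Retnla was close to absent from the trachea and highest in the mixed Ad-GFP culture. In the alveolar BASC, AT2 Ad-GFP and AT2 Ad-Cre cultures it stood at 25, 67.2 and 8.96 CPM, so it was not particular to airway-like cultures.

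Other secreted proteins shared this direction. Bpifb1, a lipid-binding protein of airway secretions, stood at 5.06, 12.5, 5.73 and 6.79 CPM in the trachea and 44.1, 145 and 68.6 in BASC cultures (log2 fold change 3.52, SE 0.48, edgeR adjusted p = 0.041). Tff2, a trefoil peptide made with mucus, stood at 0.742, 2.32, 0.561 and 1.71 against 10.6, 46.2 and 41.1 (log2 fold change 4.62, SE 0.66, edgeR adjusted p = 0.047). In the 3 alveolar cultures Bpifb1 was at most 0.845 CPM and Tff2 at most 0.115, so their highest levels were in airway-like BASC cultures. Klk14, a secreted serine protease, was higher as well (1.22 to 4.16 against 21.4 to 58.5 CPM, log2 fold change 3.86, SE 0.53, edgeR adjusted p = 0.041). It stood at 19.7, 28 and 21.4 CPM in the alveolar BASC, AT2 Ad-GFP and AT2 Ad-Cre cultures, so it was not particular to airway-like ones. On the list of club secretory genes, 4 of 24 members tested were called higher (Scgb1a1, Retnla, Tff2 and Bpifb1), against 0.218% of all genes, and 0 lower by edgeR (3 at an unadjusted p below 0.05 and 1 by DESeq2), against 0.123%. The list's median log2 fold change was 0.29, beside 0.00 for all genes. Its most abundant member, Cbr2, a carbonyl reductase, stood at 7831, 7403, 8152 and 7962 CPM in the trachea and 7271, 4292 and 2988 in BASC cultures, not called with all 7 (edgeR adjusted p = 0.3, DESeq2 0.13) and called lower without mixed Ad-GFP (log2 fold change -1.11, SE 0.18, edgeR adjusted p = 0.005). Without that culture 8 of 25 were called higher and 8 lower, against 13.0% and 13.5% of all genes, so the list then divided evenly. Bpifa1, an abundant antimicrobial protein of upper airway secretions, stood at 674, 932, 431 and 388 against 1950, 2554 and 1978, without overlap. EdgeR did not call it with all 7 cultures but did without mixed Ad-GFP (adjusted p = 0.068 and 0.0055), and DESeq2 called it with all 7 (1.4e-06). Scgb3a1 and Scgb3a2, secretoglobins of the conducting airway, overlapped between the sides, at 232 to 792 against 615 to 1420 and 452 to 775 against 214 to 942.

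**Figure D2:**
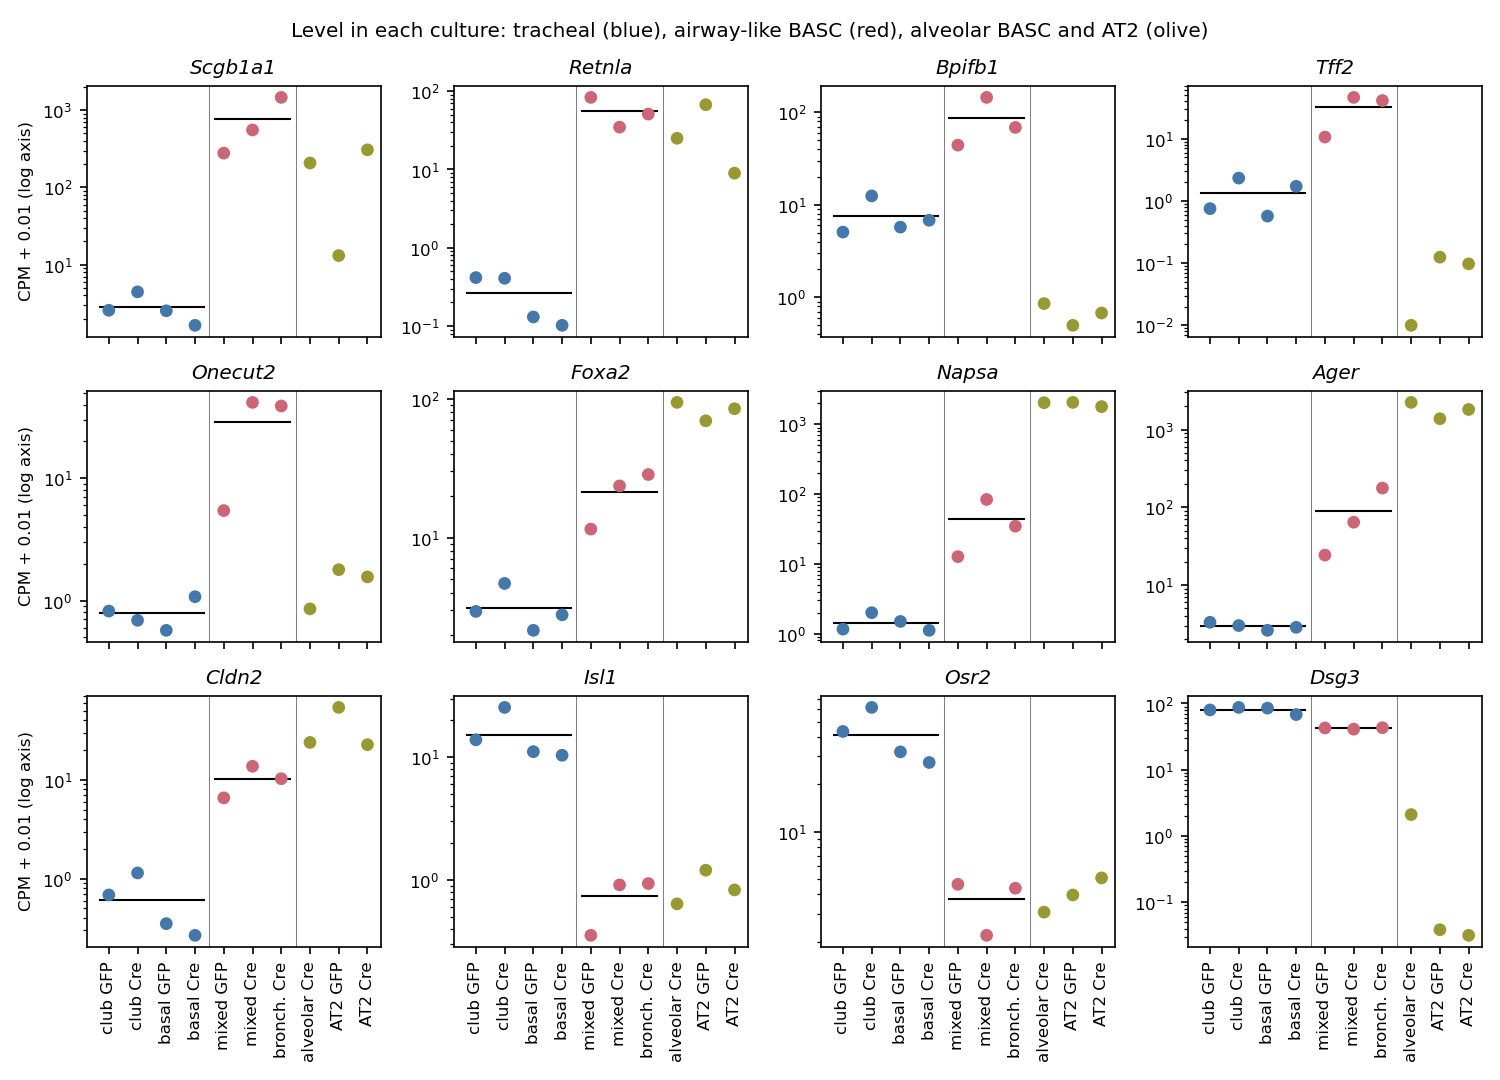
Level of 12 named genes in each of the 10 organoid cultures, in CPM with 0.01 added on a log axis; each point is 1 library and the black lines are the means of the 4 tracheal and of the 3 airway-like BASC cultures. Scgb1a1, Retnla, Bpifb1, Tff2, Onecut2, Foxa2, Napsa, Ager and Cldn2 are higher and Isl1, Osr2 and Dsg3 lower in every BASC culture than in every tracheal one.

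Mucus genes did not all share a direction. Of 21 goblet and mucin genes tested, 2 were called higher, Tff2 and Bpifb1 again, against 0.218% of all genes, and 0 lower by edgeR. At an unadjusted p below 0.05, 4 were higher and 2 lower, and DESeq2 called 3 higher and 0 lower. Without overlap 4 were higher and 1 lower, against 8.21% and 8.01% of all genes. The list's median log2 fold change was 0.16. Without mixed Ad-GFP 4 of 21 were called higher and 5 lower, against 13.0% and 13.5% of all genes. The secreted mucins Muc5b and Muc5ac were called by neither edgeR nor DESeq2 and overlapped between the sides (127, 120, 30.5 and 44.7 against 193, 105 and 182 CPM for Muc5b, 33.4, 47, 10.7 and 15.3 against 49.4, 26.7 and 35.1 for Muc5ac). Lactoferrin (Ltf), the most abundant member, stood at 7814 to 10440 in the trachea and 8822 to 12110 in BASC cultures.

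Many of the genes called higher in BASC cultures had their highest levels in alveolar cultures. Of the 39 genes called higher, 25 stood higher in all 3 alveolar cultures than in any airway-like BASC culture, against 26.1% of all genes. In the alveolar cultures 35 stood higher than in any tracheal culture, against 30.0%, and 4 lower than in any airway-like BASC culture, against 30.7%. The same tracheal and BASC cultures chose these 39 genes, so the shares of all genes are no expected values for them. Napsa, the aspartic protease that processes surfactant proteins, stood at 1.15, 1.98, 1.48 and 1.1 CPM in the trachea, 12.7, 83.6 and 34.6 in BASC cultures and 2043, 2062 and 1796 in alveolar cultures (log2 fold change 4.94, SE 0.63, edgeR adjusted p = 0.036). Ager, a receptor and marker of alveolar type 1 cells, stood at 3.31, 3, 2.6 and 2.85 in the trachea, 24.3, 64.2 and 177 in BASC cultures and 2233, 1376 and 1810 in alveolar cultures (log2 fold change 4.91, SE 0.63, edgeR adjusted p = 0.036). Both were above all tracheal values in every BASC culture and still far below the alveolar cultures. Susd2, a membrane protein, followed the same order (2.86 to 5.06, 14.1 to 22.9 and 482 to 946 CPM, log2 fold change 2.36, SE 0.26, edgeR adjusted p = 0.036).

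The surfactant genes Sftpb and Sftpc had larger differences and a wider spread. Sftpb stood at 5.97, 26.9, 0.741 and 1.19 CPM in the trachea, 327, 1227 and 1628 in BASC cultures and 8894, 10120 and 8444 in alveolar cultures. Sftpc stood at 1.79, 27.2, 2.18 and 1.32 in the trachea, 96.9, 659 and 142 in BASC cultures and 29720, 28280 and 27190 in alveolar cultures. The club Ad-Cre culture was the highest of the tracheal cultures for both, and no BASC culture overlapped the trachea. With all 7 cultures edgeR called neither (adjusted p = 0.084 and 0.12) and DESeq2 called both (1.0e-05 and 0.0028). Without the mixed Ad-GFP culture both were higher (Sftpb log2 fold change 7.40, SE 1.21, edgeR adjusted p = 0.0048; Sftpc log2 fold change 5.67, SE 1.20, edgeR adjusted p = 0.012), and so were Sftpa1, Lamp3 and Slc34a2, further genes of AT2 cells, with log2 fold changes of 5.89, 7.02 and 1.89. Sftpd, also a surfactant gene and the most abundant AT2 list member by TPM, was level. It stood at 533 to 770 CPM in the trachea and 634 to 696 in BASC cultures. Of 28 AT2 genes tested, 1 (Napsa) was called higher with all 7 cultures, against 0.218% of all genes, and 0 lower, against 0.123%. DESeq2 called 17 higher and 1 lower. In 18 genes all 3 BASC cultures lay above all 4 tracheal ones, against 8.21% of all genes, and in 1 the reverse, against 8.01%. Without the mixed Ad-GFP culture 17 of 29 were called higher, against 13.0% of all genes, and 3 lower, against 13.5%.

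Summed over the AT2 list, TPM was 2471, 2799, 2042 and 2220 in the tracheal, 3634, 7328 and 7059 in the BASC and 106000, 126000 and 105400 in the alveolar cultures. Its median log2 fold change was 1.38 with all 7 cultures and 1.62 without the mixed Ad-GFP culture, beside 0.00 and -0.01 for all genes. Mixed cultures held alveolar organoids by the study's account, and in bulk RNA a few alveolar cells and low alveolar expression in many cells cannot be told apart. Among 25 alveolar type 1 genes, 2 were called higher, Ager and Scnn1g, against 0.218% of all genes, and 9 were without overlap in that direction, against 8.21%. Without mixed Ad-GFP 14 of 25 were called higher and 2 lower, against 13.0% and 13.5% of all genes. Cldn18, the lung claudin, stood at 0, 0.538, 0 and 0.0184 CPM in the trachea and 3.84, 51.3 and 45.7 in BASC cultures, and was called by DESeq2 but not edgeR with all 7 cultures (edgeR adjusted p = 0.066, DESeq2 0.004) and by edgeR without mixed Ad-GFP (log2 fold change 8.62, SE 0.67, edgeR adjusted p = 4.7e-04). Hopx, a homeobox gene of type 1 cells, overlapped between the sides (59.5 to 83.5 against 51 to 82.2) and was called lower without mixed Ad-GFP (log2 fold change -0.46, SE 0.13, edgeR adjusted p = 0.038). The aquaporin Aqp5, the list's most abundant member, stood at 1200 to 1279 against 976 to 1260.

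Class II MHC genes, which present antigen and are also made by AT2 cells, showed the same order of sides. Cd74, the invariant chain and the most abundant of them, stood at 28.2, 31.1, 11.3 and 10.6 CPM in the trachea, 104, 277 and 362 in BASC cultures and 1165, 1073 and 1066 in alveolar cultures. The bronchiolar culture was highest and mixed Ad-GFP lowest of the BASC cultures, and none overlapped the trachea, where the club cultures were above the basal ones. It missed edgeR's call with all 7 cultures (edgeR adjusted p = 0.056, DESeq2 3.7e-10) and passed without the mixed Ad-GFP culture (log2 fold change 3.99, SE 0.43, edgeR adjusted p = 0.0013). H2-Aa and H2-Ab1, which encode the chains of a class II molecule, stood at 0.532 to 2.95 against 10.1 to 32.2 for H2-Aa and 3.47 to 6.15 against 11.9 to 37.6 for H2-Ab1. Of 11 members tested, 0 were called higher by edgeR with all 7 cultures (8 at an unadjusted p below 0.05 and 8 by DESeq2), 8 were above the trachea without overlap, against 8.21% of all genes, and 1 below it, against 8.01%. Without the mixed Ad-GFP culture 8 of 11 were called higher and 0 lower, against 13.0% and 13.5%. The immune marker Ptprc was at or below 0.085 CPM in all 7.

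Among transcription factors, Foxa2 was higher and Isl1 lower in BASC cultures. Foxa2 (chromosome 2, 148042877 to 148046969), a forkhead factor of foregut endoderm and distal lung, stood at 2.94, 4.67, 2.14 and 2.77 CPM in the trachea, 11.5, 23.6 and 28.5 in BASC cultures and 94.1, 69.4 and 84.8 in alveolar cultures (log2 fold change 2.76, SE 0.37, edgeR adjusted p = 0.039). Isl1 (chromosome 13, 116298281 to 116309689), a LIM homeodomain factor, stood at 13.9, 25.5, 11.1 and 10.4 in the trachea and 0.343, 0.9 and 0.924 in BASC cultures (log2 fold change -4.39, SE 0.50, edgeR adjusted p = 0.036). It was below 1 CPM in every BASC culture and near that in alveolar ones (0.628, 1.19 and 0.819). Osr2 (chromosome 15, 35296098 to 35303305), an odd-skipped zinc finger factor, followed Isl1, at 43.2, 61.5, 32.1 and 27.4 against 4.61, 2.18 and 4.35 (log2 fold change -3.47, SE 0.39, edgeR adjusted p = 0.036). Onecut2, a cut-homeodomain factor, was higher in BASC cultures, at 0.81, 0.68, 0.561 and 1.06 against 5.42, 41.6 and 38.9, with the Ad-Cre cultures well above mixed Ad-GFP (log2 fold change 5.19, SE 0.70, edgeR adjusted p = 0.039). It was at 0.845, 1.78 and 1.55 in alveolar cultures, so its peak was in airway-like BASC cultures.

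Of 48 lung lineage factors tested, edgeR called 1 higher (Foxa2) and 1 lower (Isl1), against 0.218% and 0.123% of all genes. DESeq2 called 6 and 6, with 780 and 401 of 29662 among all genes, and the median log2 fold change was -0.18. Without overlap, 8 were higher and 15 lower, against 8.21% and 8.01% of all genes. Without mixed Ad-GFP 11 of 48 were called higher and 16 lower, against 13.0% and 13.5%. Nkx2-1, the factor that marks lung epithelium, was level (98.1 to 107 against 78.9 to 110 CPM) and stood at 257 to 360 in alveolar cultures. Elf3, an epithelial ETS factor and the most abundant of the list by TPM, stood at 664, 698, 784 and 799 against 634, 507 and 293, not called with all 7 cultures (edgeR adjusted p = 0.25, DESeq2 0.14) and called lower without mixed Ad-GFP (adjusted p = 0.02). Chga, a granule protein of neuroendocrine cells, was lower (log2 fold change -3.12, SE 0.39, edgeR adjusted p = 0.036), and scarce even in the trachea (0.27, 0.397, 0.521 and 0.349 against 0.0327, 0.0474 and 0.047 CPM). Of 23 rare airway cell genes tested, 0 were called higher by edgeR (5 at an unadjusted p below 0.05 and 2 by DESeq2). Without mixed Ad-GFP 3 of 23 were called higher and 11 lower, against 13.0% and 13.5% of all genes, so only the lower share stood out. Atp6v1c2, a proton pump subunit and the most abundant of that list, stood at 4.29 to 6.45 against 11.2 to 21.9 CPM. In the alveolar cultures it stood higher still, at 98.3 to 108, so it was not particular to rare airway cells here. DESeq2 called it with all 7 cultures and edgeR did not (edgeR adjusted p = 0.052, DESeq2 1.6e-07), though it did without mixed Ad-GFP (log2 fold change 1.93, SE 0.17, edgeR adjusted p = 6.2e-04). The neuroendocrine peptide gene Calca was at most 0.113 CPM in all 7 cultures. Foxi1, a factor of ionocytes, stood at 0.27 to 1.16 against 0.0158 to 0.294 and Dclk1, a kinase of tuft cells, at 10.4 to 29.7 against 27.1 to 45.3.

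Hox genes mark position along the body. Of 18 tested, edgeR called 0 with all 7 cultures (1 higher and 9 lower at an unadjusted p below 0.05, and 1 higher and 5 lower by DESeq2), and 9 were lower and 1 was higher in BASC cultures without overlap, against 8.01% and 8.21% of all genes. Without mixed Ad-GFP 1 of 18 were called higher and 10 lower, against 13.0% and 13.5%. The list's median log2 fold change was -0.89. Hoxc4 stood at 1.05, 0.708, 6.51 and 7 CPM in the trachea, the basal cultures above the club ones, and at 0.131, 0.158 and 0.0313 in BASC cultures. Hoxc5 followed it (0.337, 0.17, 1.48 and 1.4 against 0, 0.0158 and 0.0157). Hoxb2, the most abundant by TPM, stood at 28.4, 32.1, 32.6 and 34.8 against 21.8, 14.8 and 5.28, and its neighbour Hoxb3 at 36, 35.5, 41.3 and 44.8 against 21.4, 17.4 and 7.47. Each of these lay below the trachea in all 3 BASC cultures, and edgeR called each lower without mixed Ad-GFP (adjusted p = 0.021, 0.016, 0.013 and 0.0077) but not with all 7 cultures, where DESeq2 did (6.3e-07, 1.5e-04, 0.044 and 0.0019). Hoxa5, which patterns the lung, overlapped (8.34 to 13.7 against 4.78 to 9.1).

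Transport and barrier genes split within their families. The epithelial sodium channel takes up salt and liquid from the airspace, and its beta and gamma subunits were higher in BASC cultures. Scnn1b stood at 0.337, 0.255, 0.16 and 0.275 CPM in the trachea and 2.08, 4.12 and 12.6 in BASC cultures (log2 fold change 4.62, SE 0.66, edgeR adjusted p = 0.045). Scnn1g stood at 1.08, 0.595, 0.601 and 0.753 against 3.43, 6.08 and 10.1 (log2 fold change 3.11, SE 0.40, edgeR adjusted p = 0.037). The alpha subunit Scnn1a was level at 151, 123, 121 and 106 against 141, 98.7 and 145, so only the scarcer subunits were called (by TPM, means over the 7 cultures of 66.8 for Scnn1a, 2.15 for Scnn1b and 1.95 for Scnn1g). These were the 2 called of 30 ion and water transport genes tested, against 0.218% of all genes, and without mixed Ad-GFP 9 of 30 were called higher and 4 lower, against 13.0% and 13.5%. Among 16 claudins, the proteins that seal tight junctions, Cldn2, which forms a pore for cations, was higher (0.675, 1.13, 0.341 and 0.257 against 6.57, 13.7 and 10.3 CPM, log2 fold change 4.12, SE 0.53, edgeR adjusted p = 0.036). Cldn23 was lower (68.5, 69.8, 80.6 and 72.8 against 41, 46.1 and 40.2, log2 fold change -0.78, SE 0.09, edgeR adjusted p = 0.036). The most abundant, Cldn4, stood at 668, 652, 747 and 812 against 645, 1076 and 1272 and was called by neither tool with all 7 cultures (edgeR adjusted p = 0.33, DESeq2 0.28) but called higher without mixed Ad-GFP (log2 fold change 0.70, edgeR adjusted p = 0.0064). In that fit 7 of 17 were called higher and 2 lower on the claudin list, against 13.0% and 13.5% of all genes. With all 7 cultures 1 of 16 was called higher and 1 lower, against 0.218% and 0.123%.

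Genes of the stratified epithelium and cell surface were among those lower in BASC cultures. Of the 22 genes called lower, 20 were also lower in all 3 alveolar cultures than in any tracheal culture, against 36.7% of all genes. The same tracheal cultures chose these 22 genes, so that share is no expected value for them. Dsg3, a desmosomal cadherin of basal cells, stood at 79.8, 87.2, 85.1 and 68 CPM in the trachea and 42.7, 41 and 43.1 in BASC cultures (log2 fold change -0.92, SE 0.10, edgeR adjusted p = 0.036). The BASC values hardly varied. Scel, a protein of the cornified envelope, stood at 164, 161, 162 and 165 against 107, 97.1 and 84.7 (log2 fold change -0.76, SE 0.09, edgeR adjusted p = 0.036). Duoxa1, which matures the hydrogen peroxide producing dual oxidase, was also lower (16.9, 15.9, 16.1 and 14.9 against 6.11, 7.47 and 7.27, log2 fold change -1.20, SE 0.12, edgeR adjusted p = 0.036). Decreases were also called for Tln2, a talin, B3gnt2, a glycosyltransferase, and Acsf2, an acyl-CoA synthetase, with log2 fold changes of -0.88, -0.90 and -0.64. Of 25 basal cell genes, 1 (Dsg3) was called lower by edgeR with all 7 cultures, against 0.123% of all genes, and 8 by DESeq2. Without overlap 13 were lower, against 8.01%, and the median log2 fold change was -0.47. Without mixed Ad-GFP 1 of 25 were called higher and 11 lower, against 13.0% and 13.5%. Krt5 and Krt14, the paired basal keratins, were called lower with all 7 cultures by DESeq2 but not edgeR (edgeR adjusted p = 0.21, DESeq2 0.045 for Krt5, edgeR adjusted p = 0.18, DESeq2 0.032 for Krt14), and by edgeR without mixed Ad-GFP (Krt5 log2 fold change -1.53, SE 0.28, edgeR adjusted p = 0.0066; Krt14 log2 fold change -1.12, SE 0.30, edgeR adjusted p = 0.029). Krt15, a further basal keratin, stood at 356, 328, 317 and 241 against 432, 103 and 10.2, with mixed Ad-GFP highest of all 7 and the bronchiolar culture lowest.

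Of 29 squamous genes tested, edgeR called 0 with all 7 cultures (3 higher and 6 lower at an unadjusted p below 0.05, and 2 higher and 4 lower by DESeq2), and their median log2 fold change was -0.32. Without mixed Ad-GFP 5 of 30 were called higher and 7 lower, against 13.0% and 13.5% of all genes. Krt4 and Krt13, keratins of suprabasal cells, stood at 83.4, 105, 71.2 and 53.4 against 48.8, 15.6 and 7.91 CPM and at 53.7, 44.3, 27.8 and 23.6 against 43.2, 14.5 and 2.05. Involucrin (Ivl) ran the other way in the Ad-Cre BASC cultures, at 21.5, 21.5, 22.9 and 18.9 against 12.7, 46.9 and 104. Sprr2a3, the most abundant, has near-identical neighbours that can share its reads, and stood at 427 to 510 against 317 to 533. Rpl23a-ps3 and Rpl17-ps8, called lower (log2 fold changes -1.17 and -0.89), are ribosomal protein pseudogenes that can share reads with their parent genes, and B3gnt2 shares its span with a readthrough gene, so these 3 are uncertain.

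Multiciliated cell genes divided the BASC cultures from each other. Foxj1, the master factor of motile cilia, stood at 257, 295, 298 and 253 CPM in the trachea and 493, 136 and 104 in BASC cultures. Dnah5, a heavy chain of the axonemal dynein arm, stood at 50.7, 64.4, 51.7 and 43.9 against 107, 15.8 and 8.3. Ccdc39, which sets the spacing of dynein arms, stood at 52.4, 48.4, 64 and 61.2 against 132, 21.4 and 7.84. In all 3 genes the mixed Ad-GFP culture was the highest of the 7 and the Ad-Cre BASC cultures the lowest. All 35 of 35 members tested lay above every tracheal culture in mixed Ad-GFP, against 30.3% of all genes above and 24.7% below. All 35 lay below every tracheal culture in mixed Ad-Cre, against 29.6% of all genes above and 32.4% below, and all 35 in the bronchiolar culture, against 36.0% above and 37.3% below. Median log2 ratios to the tracheal mean were 0.91, -1.33 and -2.67, in the order mixed Ad-GFP, mixed Ad-Cre, bronchiolar. With all 7 cultures edgeR called 0 members (0 higher and 0 lower at an unadjusted p below 0.05, and 0 higher and 0 lower by DESeq2), and without mixed Ad-GFP it called all 35 lower, against 13.5% of all genes (Foxj1 log2 fold change -1.20, SE 0.13, edgeR adjusted p = 0.0014).

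The early factors of this program followed. Mcidas, which starts it, stood at 21.1, 19.8, 29 and 19.9 CPM in the trachea and 37.9, 5.58 and 0.955 in BASC cultures, and Ccno, a cyclin-like protein of centriole amplification, at 63.9, 59, 82.4 and 55.2 against 89.5, 16.8 and 6.4. Summed TPM over the list was 3060, 3103, 3065 and 2735 in the trachea and 5402, 1485 and 878 in BASC cultures. Tubb4b, a tubulin and the most abundant member, stood at 458 to 631 against 925, 370 and 260 CPM. The lane tag of the mixed Ad-GFP library is that of mixed Ad-Cre. The pair differs in virus, and with 1 library of each kind, virus and culture cannot be told apart.

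Xenobiotic enzymes, a hallmark of club cells, gave a like split. Cyp2f2, a club cell cytochrome P450, stood at 2986, 2681, 3008 and 1841 CPM in the trachea and 2572, 946 and 1090 in BASC cultures. Adh7, an alcohol dehydrogenase that also oxidizes retinol, stood at 192, 156, 147 and 113 against 232, 25.5 and 10.4. For both, mixed Ad-GFP was near or above the trachea and the other BASC cultures far below it, and both were called lower without mixed Ad-GFP (adjusted p = 0.0042 and 0.0021). Of 50 members tested, 25 lay above every tracheal culture in mixed Ad-GFP, against 30.3% of all genes, 31 below every one in mixed Ad-Cre, against 32.4%, and 35 below every one in the bronchiolar culture, against 37.3%. EdgeR called 0 members with all 7 cultures (6 higher and 4 lower at an unadjusted p below 0.05, and 5 higher and 1 lower by DESeq2). It called 27 lower and 7 higher of 50 without mixed Ad-GFP, against 13.5% and 13.0% of all genes, so only the lower share stood out. Medians were -0.15 and -0.54.

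Interferon-stimulated genes were low on the BASC side, most of all in the bronchiolar culture. Irf7, the factor that amplifies the interferon response, stood at 259, 226, 254 and 214 CPM in the trachea and 157, 166 and 24.2 in BASC cultures. Bst2, a membrane protein that tethers virus and the list's most abundant member, stood at 166, 144, 141 and 132 against 102, 132 and 41.9. The bronchiolar culture was lowest in both, Irf7 did not overlap between the sides, and the Bst2 values of basal Ad-Cre and mixed Ad-Cre were nearly equal. Of 32 members tested, 27 were lower in all 3 BASC cultures than in all 4 tracheal ones and 0 higher, against 8.01% and 8.21% of all genes. Median log2 ratios to the tracheal mean were -0.31, -0.39 and -2.22. With all 7 cultures edgeR called 0 members (0 higher and 8 lower at an unadjusted p below 0.05, and 0 higher and 2 lower by DESeq2), and it called 6 lower without mixed Ad-GFP, little more than the 13.5% of all genes.

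**Figure D3:**
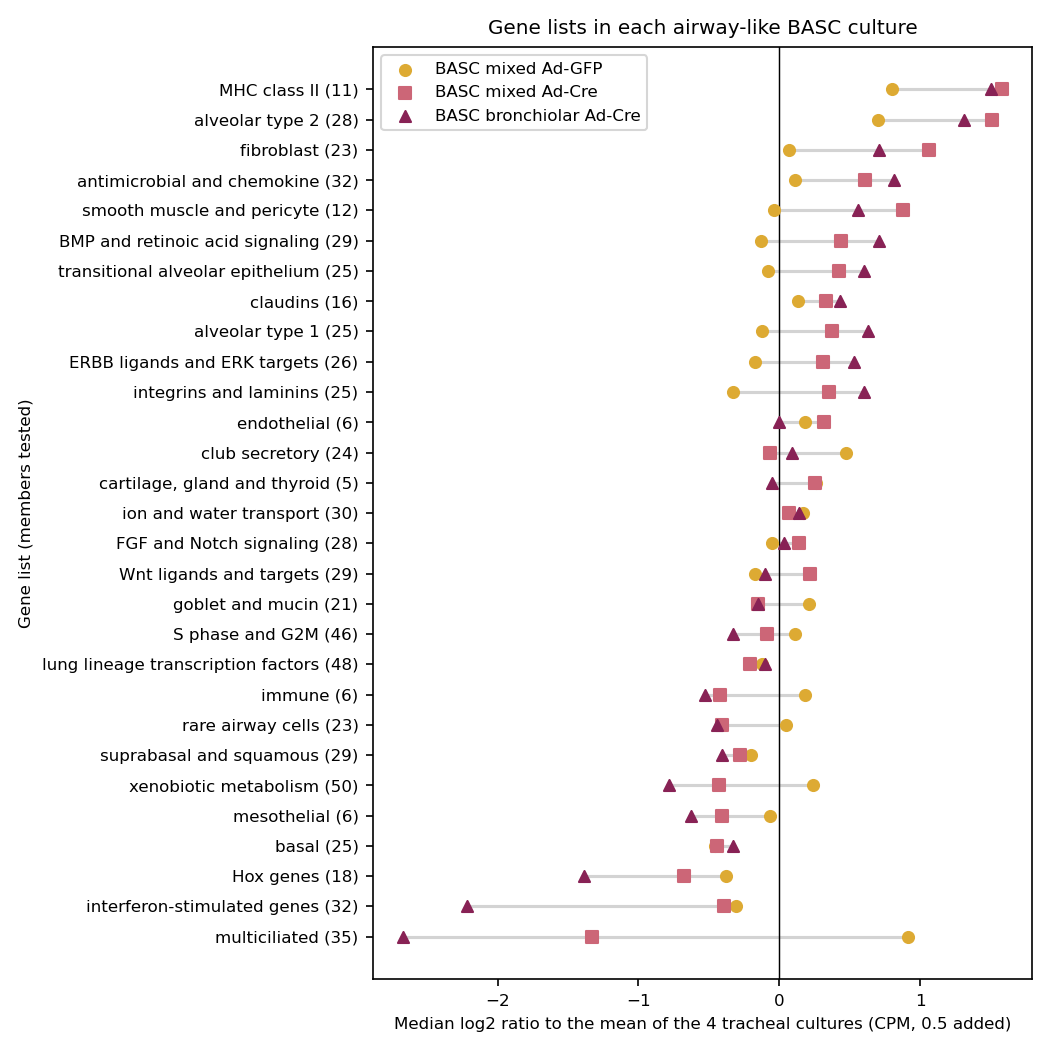
Median log2 ratio of CPM (0.5 added) to the mean of the 4 tracheal cultures over the tested members of each gene list, with 1 symbol per airway-like BASC culture. Multiciliated genes lie at 0.91, -1.33 and -2.67 and interferon-stimulated genes at -0.31, -0.39 and -2.22 in the mixed Ad-GFP, mixed Ad-Cre and bronchiolar cultures, while AT2 and class II MHC genes lie above 0 in all 3.

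The chemokines Ccl2, Ccl7 and Cxcl2 were higher in the BASC cultures. Ccl2, which draws monocytes, stood at 8.67, 16.7, 13.2 and 12.1 CPM in the trachea and 33.8, 49 and 64.7 in BASC cultures (log2 fold change 1.96, SE 0.27, edgeR adjusted p = 0.042). Its neighbour Ccl7 followed (3.91, 7.14, 4.91 and 5.16 against 15.1, 21.3 and 23.9, log2 fold change 1.93, SE 0.24, edgeR adjusted p = 0.036), and Cxcl2, which draws neutrophils, was nearly level within each side (12.9, 14.2, 11.4 and 12.1 against 22.8, 23.3 and 24.4, log2 fold change 0.89, SE 0.10, edgeR adjusted p = 0.036). On the antimicrobial and chemokine list, 2 of 32 members were called higher, Bpifb1 and Cxcl2, against 0.218% of all genes, and 0 lower by edgeR (3 at an unadjusted p below 0.05 and 2 by DESeq2), with a median log2 fold change of 0.57. Without mixed Ad-GFP 14 of 32 were called higher and 4 lower, against 13.0% and 13.5% of all genes.

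Markers of support cells were higher in part of the BASC cultures. Tagln, an actin-binding protein of smooth muscle and fibroblasts, was higher in BASC cultures (25.2, 28.4, 22.1 and 24.4 against 47.8, 72.2 and 53.6 CPM, log2 fold change 1.21, SE 0.16, edgeR adjusted p = 0.039) and was the 1 called of 12 smooth muscle and pericyte genes tested, against 0.218% of all genes. Without mixed Ad-GFP 7 of 12 were called higher and 0 lower, against 13.0% and 13.5% of all genes. Of 23 fibroblast genes tested among 25 listed, 0 were called by edgeR with all 7 cultures (19 higher and 1 lower at an unadjusted p below 0.05, and 11 higher and 1 lower by DESeq2). Without mixed Ad-GFP 21 of 23 were called higher and 1 lower on that list, against the same 13.0% and 13.5% of all genes. Summed TPM of the fibroblast list was 2007, 2040, 1764 and 1800 in the trachea, 2133, 4408 and 3681 in BASC cultures and 7161, 12960 and 10350 in alveolar cultures. The mixed Ad-GFP culture stood near the trachea and both Ad-Cre BASC cultures between the trachea and the alveolar cultures. Mgp, a matrix protein and its most abundant member, stood at 183, 239, 152 and 152 against 250, 502 and 412 CPM, Dcn, a matrix proteoglycan, at 64.6, 88.4, 90.8 and 92.8 against 70.2, 266 and 333, and Col1a1 at 1120, 934, 997 and 1012 against 874, 1879 and 1162. Smooth muscle genes summed to 156, 119, 116 and 121 TPM in the trachea and 160, 266 and 276 in BASC cultures. Mcam led the sum (83.5, 52.2, 64.9 and 58.4 against 33.5, 112 and 211 CPM). In alveolar cultures Mcam stood at only 7, 9.36 and 6.12 CPM. Without Mcam the sums were 103, 88, 77.2 and 84.8 TPM in the trachea and 139, 199 and 142 in BASC cultures. In alveolar cultures they were 272, 229 and 275. Acta2 stood at 35.7, 33.1, 31.5 and 30.7 against 61.6, 87.8 and 49.1 CPM. The part of support cells in the genes called was not tested.

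Endothelial genes were close to absent: 13 of 16 were below 1 TPM in all 7 cultures, the list summed to 10.7, 9.37, 9.48 and 7.64 TPM in the trachea and 9.77, 18.3 and 17.6 in BASC cultures, and Eng was the most abundant. Pecam1 was at most 0.474 CPM and Cdh5 at most 0.157. Immune genes were below 1 TPM in all 7 for 11 of 15, 1 of them with 0 counts, and the sums of 535, 622, 573 and 598 against 504, 591 and 561 TPM were mostly Cd14, which airway epithelium can also make. Mesothelial genes summed to 2179, 2405, 2283 and 2548 against 1659, 1351 and 1027 TPM, mostly Msln (1916, 2345, 2212 and 2484 against 1467, 1280 and 935 CPM), with 4 of 8 below 1 TPM. Cartilage, gland and thyroid genes summed to 2.28, 1.43, 1.18 and 1.4 against 2.14, 2.61 and 4.91 TPM, with Col2a1 the most abundant (2.46, 0.85, 1.04 and 0.771 against 1.23, 2.07 and 3.56 CPM). With all 7 cultures edgeR called 0 members of these 4 lists. Together they had 4 higher and 5 lower of 23 members tested at an unadjusted p below 0.05, and DESeq2 called 2 higher and 3 lower. Without mixed Ad-GFP, edgeR called 3 of 8 endothelial and 1 of 5 cartilage, gland and thyroid genes higher and 0 lower. It called 3 of 8 immune and 3 of 6 mesothelial genes lower and 0 higher (all genes 13.0% higher and 13.5% lower). Msln was called lower by DESeq2 with all 7 cultures (adjusted p = 2.3e-04) and by edgeR without mixed Ad-GFP (0.0055). Epcam, an epithelial marker, was level (666 to 1068 against 741 to 1218 CPM).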

How the data were processed

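RNA from each culture was sequenced on TruSeq libraries and a HiSeq instrument. The authors trimmed reads with Trimmomatic 0.39, aligned them with STAR 2.6.1d to Ensembl GRCm38 transcripts and deposited RSEM 1.3.2's expected count and TPM per gene. Expected counts were rounded and tested in R 4.3.3 with edgeR 4.0.16 (filterByExpr, TMM, quasi-likelihood test, Benjamini-Hochberg adjusted p below 0.05 over all genes tested), with group as the only term and the 7 cultures only. Positive log2 fold changes mean higher in BASC cultures. TPM was used for levels between genes and for 1 alternative. Symbols and positions are GENCODE vM21. The pipeline was tested on simulated data.

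The members and the 30 gene lists were chosen with earlier results of these data known. Named genes were the label checks; the 12 largest called changes in each direction with average log2 CPM of at least 3, no overlap and a symbol that is not a gene model; each list's 4 largest called changes and most abundant member; and, among genes not called, abundant or defining markers. A2ml1 and Clu were named after their values were seen, and 2 genes that met these rules are not given. Listed symbols Muc16, Il36a and Cldn25 were not found, and Dnai1 and Dnai2 were counted under their older names. The smallest library (27772660 counts) puts the floor of 3 counts at 0.108 CPM, for counting error only. Alternatives used DESeq2 1.42.0 and limma 3.58.1. Whether counting used strand is not stated, so Scnn1b, Tagln, Klk14, Duoxa1 and Acsf2, which overlap genes on the other strand, may share reads with them.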

Additional observations from a re-analysis of the deposited data

Results flagged for a closer look

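In the 4 tracheal cultures, 9 of 111 named genes have a culture that stands apart, by a gap to its nearest neighbour, as a share of the whole range, above the 95% critical value of Dixon's test; chance alone flags about 1 in 20. The club Ad-Cre culture is the high one for 4 alveolar genes: Sftpc (1.79, 27.2, 2.18 and 1.32 CPM, gap 0.967 of the range), Sftpa1 (1.22, 6.51, 0.741 and 1.01 CPM, gap 0.918 of the range), Lamp3 (0.506, 2.35, 0.24 and 0.147 CPM, gap 0.837 of the range) and Cldn18 (0, 0.538, 0 and 0.0184 CPM, gap 0.966). Sftpb was highest in the same culture (5.97, 26.9, 0.741 and 1.19 CPM) without reaching the limit. These genes share a culture and are not separate observations, and the source of the alveolar transcripts there was not tested. Col2a1 is high in the club Ad-GFP culture (2.46, 0.85, 1.04 and 0.771 CPM, gap 0.840 of the range). Itgb1 is low in the club Ad-GFP culture (877, 1079, 1096 and 1109 CPM, gap 0.872 of the range). Mcidas is high in the basal Ad-GFP culture (21.1, 19.8, 29 and 19.9 CPM, gap 0.866 of the range). Calca is low in the club Ad-GFP culture (0.0337, 0.113, 0.1 and 0.11 CPM, gap 0.835 of the range). That value lies below the library's floor of 3 counts (0.108 CPM) and Calca was not tested, so no difference can be read from it. Dcn is low in the club Ad-GFP culture (64.6, 88.4, 90.8 and 92.8 CPM, gap 0.844 of the range).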

How the results depend on the processing

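No paired analysis was possible because no sorted population stands on both sides, and the labels of the organoid cultures carry no replicate numbers. The 61 called genes kept their direction under every setting that tested them, and the count depended on the setting. It stayed within 1.5 times of 61 with DESeq2's size factors (65), upper-quartile factors (60), a minimum count of 50 (49) and virus as a covariate (41). It was 1181 with DESeq2's Wald test, 123 without a filter on low counts, 40 with limma on TPM, 718 with Ad-Cre cultures only and 180 with all 10 organoid cultures in the fit. With the alveolar BASC culture added it was 4. With club cultures only or basal cultures only on the tracheal side it was 0 by edgeR, with 1594 and 1538 genes at an unadjusted p below 0.05 and 321 and 519 called by DESeq2. Leaving out 1 culture in turn gave 0 to 4812: 0 without any of the tracheal cultures, 1 without the mixed Ad-Cre, 5 without the bronchiolar and 4812 without the mixed Ad-GFP BASC culture. A single BASC culture against the 4 tracheal ones, assumed to vary as they do, gave 5823 for the bronchiolar culture and, chosen after seeing the data, 2644 for mixed Ad-Cre and 1012 for mixed Ad-GFP. The cause of these changes was not tested.

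Of the named genes not called with all 7 cultures, 47 were followed through the settings, and the others were not. These 47 were the ones called without mixed Ad-GFP. That choice favours genes in which mixed Ad-GFP differs from the other BASC cultures, so turns with it alone are no independent result. Several of these 47 turned direction, again with no cause tested. With the mixed Ad-GFP culture alone on the BASC side, log2 fold changes became positive for Foxj1 0.81, Tubb4b 0.69, Hopx 0.20, Krt15 0.45, Mcidas 0.73, Ccno 0.43, Dnah5 0.99, Ccdc39 1.19, Adh7 0.58 and Mki67 0.02, and negative for Cldn4 -0.19, Mcam -0.98, Itgb1 -0.26, Ivl -0.76 and Dcn -0.29. Leaving out 1 culture in turn gave -1.20 to 0.19 for Foxj1, -0.84 to 0.20 for Tubb4b, -2.12 to 0.21 for Dnah5 and -1.95 to 0.43 for Ccdc39, the extremes without mixed Ad-GFP and without bronchiolar. Tubb4b was 0.00 with basal cultures only on the tracheal side, Ccdc39 0.07 with club cultures only, and Hopx 0.80 with the alveolar BASC culture added. Of the 31 named genes called, none turned direction. With 7 cultures of different kinds, differences smaller than the spread among the BASC cultures could not be seen, and depth, which was greater in every BASC culture, limits genes near the floor.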

Other observations

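Several signaling and matrix lists stood higher in the Ad-Cre BASC cultures than in the mixed Ad-GFP one, and edgeR called 0 members of each with all 7 cultures. Together these lists had 26 higher and 5 lower of 105 members tested at an unadjusted p below 0.05, and DESeq2 called 16 higher and 1 lower. Among all genes, 3142 of 17908 had such a p and DESeq2 called 1181 of 29662. Median log2 ratios to the tracheal mean (mixed Ad-GFP, mixed Ad-Cre, bronchiolar) were -0.08, 0.42 and 0.60 for transitional alveolar genes, -0.17, 0.31 and 0.53 for ERBB ligands and ERK targets, -0.13, 0.44 and 0.71 for BMP and retinoic acid genes and -0.33, 0.35 and 0.60 for integrins and laminins. Without mixed Ad-GFP, 14 of 25, 13 of 26, 14 of 29 and 13 of 25 members were called higher, in that order, against 13.0% of all genes, and 0, 1, 4 and 0 lower, against 13.5%. Clu, a secreted chaperone on the transitional list, stood at 432, 460, 484 and 550 CPM in the trachea and 839, 4704 and 6333 in BASC cultures. A2ml1, a secreted protease inhibitor, ran the other way, at 382, 768, 213 and 268 against 79.4, 25 and 15.5. Both were named after their values were seen, and edgeR called neither with all 7 cultures (adjusted p = 0.08 and 0.094), where DESeq2 called both (9.3e-07 and 0.0013). EdgeR called both without mixed Ad-GFP (1.5e-04 and 0.0029). Grem1, a BMP antagonist, stood at 405, 506, 495 and 434 against 494, 956 and 774, Itgb1, an integrin subunit, at 877, 1079, 1096 and 1109 against 882, 1574 and 2237, and Lcn2 and Ier3, the most abundant transitional and ERK target genes, at 2770 to 3658 against 3166 to 3497 and 312 to 352 against 294 to 418.

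Other lists had medians near the trachea. Proliferation genes had 0 of 46 members called by edgeR with all 7 cultures (3 higher and 0 lower at an unadjusted p below 0.05, and 0 higher and 0 lower by DESeq2) and a median log2 fold change of -0.11, with Mki67 at 80.2, 111, 109 and 102 against 104, 77.9 and 63.1 CPM and Pcna at 57.1 to 74.7 against 75.6 to 81.7. In mixed Ad-GFP 16 members lay above and 0 below every tracheal culture (all genes 30.3% and 24.7%), and in the bronchiolar culture 5 and 28 (36.0% and 37.3%). Without mixed Ad-GFP 3 of 46 were called higher and 7 lower, against 13.0% and 13.5%, with Mki67 among the lower (adjusted p = 0.038). Wnt genes (median -0.07, led by Wnt7b at 149 to 178 against 128 to 147) and FGF and Notch genes (median 0.08, led by Fgfbp1 at 439 to 486 against 264 to 404) gave 0 calls of 29 and 28 by edgeR. The Wnt list had 7 higher and 5 lower at an unadjusted p below 0.05, and 3 higher and 3 lower by DESeq2, and the FGF and Notch list 7 higher and 5 lower at an unadjusted p below 0.05, and 4 higher and 1 lower by DESeq2. Without mixed Ad-GFP 9 of 29 were called higher and 5 lower on the Wnt list, and 7 of 28 were called higher and 5 lower on the FGF and Notch list, against 13.0% and 13.5% of all genes. Xist, made by female cells, stood at 14.6, 13.7, 11.6 and 15.9 CPM in the trachea and 23, 31.8 and 41.7 in BASC cultures. The sides did not overlap, and DESeq2 called Xist higher with all 7 cultures (adjusted p = 3.4e-05) where edgeR did not (0.068). EdgeR called it higher without mixed Ad-GFP (adjusted p = 0.0013). The Y-linked Ddx3y stood at 89.6, 91.2, 95.9 and 108 against 80.7, 100 and 120, so every culture held RNA of both sexes. Whether the share of female cells differed was not tested. Trp53 stood at 45.4, 68.2, 47.4 and 80.8 against 52.6, 96.8 and 101. The bronchiolar BASC organoids correlated with the bronchiolar BASC tumoroid at 0.943, the mixed Ad-Cre culture with it at 0.936, the mixed Ad-GFP culture at 0.895 and the tracheal cultures at 0.905 to 0.908, across 20104 genes and 2 sequencing platforms.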
